A study of Mus musculus with 18 samples.

Results

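Zfp57, Dppa3 and Trim28 encode proteins that keep DNA methylation at imprinted loci through the genome-wide erasure that follows fertilisation. On the arrays used here they are read by 4 probe sets that carry 1 of these symbols and no other, out of 34945 probe sets with a single gene symbol and 45101 in all. Zfp57 and Dppa3 have 1 probe set each and Trim28 has 2, and all 4 are described. These 3 genes were picked with their levels on these same 18 arrays already known, so every level and difference given for them is a description and carries no test.

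RNA came from 6 mouse pluripotent cell lines, with 3 arrays per line. IP14D-1, IP20D-3 and IP36D-3 were induced pluripotent stem (iPS) lines labelled B6 x D2 F1, and IP14D-101 was an iPS line labelled B6 x 129S2 F1. R1 was an embryonic stem (ES) line labelled 129X1/SvJ x 129S1 F1, and ESC2 an ES line labelled B6 x D2 F1. All lines grew with LIF on fibroblast feeders treated with mitomycin C, in medium with either fetal bovine serum or a knockout replacement, a choice not given per line. The design text also names the parental fibroblasts, which are not analysed here, and calls the arrays of a line biological replicates. No label separates cultures, passages or dishes, so the spreads and p-values of single lines below cover only the spread between these arrays. Where iPS and ES line means are compared, they cover the spread between line means. A genotype or reprogramming method for the iPS lines is not given in the labels used here, and each line stands for itself alone.

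An imprinted gene is expressed from 1 parental copy, set by a control region that carries DNA methylation on only 1 of the parental copies. ZFP57 is a KRAB zinc finger protein that recognises a methylated TGCCGC hexamer in such regions. It brings in TRIM28 (also called KAP1), a scaffold for the histone methyltransferase SETDB1, heterochromatin protein HP1 and DNA methyltransferases. DPPA3 (Stella or PGC7) binds histone H3 dimethylated at lysine 9 and shields the maternal genome from TET3-driven oxidation in the zygote. All 3 genes are active in ES cells, where DPPA3 is also known for its uneven expression among cells of a culture. In RNA from whole cultures, fewer expressing cells and less RNA per cell cannot be told apart.

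Values are log2 of the deposited intensities, in which the median probe set of an array stood between 4.87 and 4.93. The pluripotency markers Pou5f1, Nanog and Sox2 averaged 11.79 to 12.16 over the lines, far above that median. Means of 10 fibroblast (feeder) markers per line ran between 4.20 in IP20D-3 and 5.83 in IP14D-1, with 6 to 9 of the 10 under the median gene in every line. The 18S ribosomal control probe set divided the lines. Its median intensity was 76.9 in IP14D-1, 43.3 in IP14D-101 and 53.1 in R1, against 249.8 in IP20D-3, 185.1 in IP36D-3 and 205.2 in ESC2. Beta-actin control probe sets gave 3'-to-5' ratios that averaged 1.13 to 1.28 in the other 5 lines, against 1.53 ± 0.043 in ESC2 (SD, n = 3).

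Zfp57 (probe set 1450929_at; chromosome 17, 37001163 to 37010729, GRCm38.p6) was the most variable member. The 3 arrays of IP14D-1 gave 8.70, 8.61 and 8.80, and those of IP14D-101 gave 9.62, 9.54 and 9.55. In IP20D-3 the arrays gave 6.95, 7.04 and 7.34, and in IP36D-3 they gave 7.0, 7.0 and 7.10. The ES line R1 gave 8.98, 8.74 and 8.85, whereas the ES line ESC2 gave 6.25, 6.21 and 6.31. IP14D-101 was highest on every array, followed by R1 and IP14D-1, whose arrays overlapped. IP20D-3 and IP36D-3 came next and overlapped each other, and ESC2 was lowest on every array. The line means therefore formed an upper set of IP14D-101, R1 and IP14D-1 and a lower set of IP20D-3, IP36D-3 and ESC2, with no array of either set inside the range of the other.

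The Zfp57 mean was 9.96-fold higher in IP14D-101 than in ESC2 and 6.08-fold higher in R1 than in ESC2. Within the B6 x D2 F1 strain label, the IP14D-1 mean of 8.70 ± 0.09 stood 5.45-fold above the ESC2 mean of 6.26 ± 0.05 (SD, n = 3 each). IP20D-3 (7.11 ± 0.21) and IP36D-3 (7.03 ± 0.06) exceeded ESC2 by 0.85 and 0.78. The 4 lines of that strain label thus covered 6.26 to 8.70. The level lay at the 55.0th percentile of the 18193 measured genes in ESC2 and at the 89.8th in IP14D-101. Its range over the 6 line means, 3.32, was wider than that of 99.6% of genes.

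**Figure D1:**
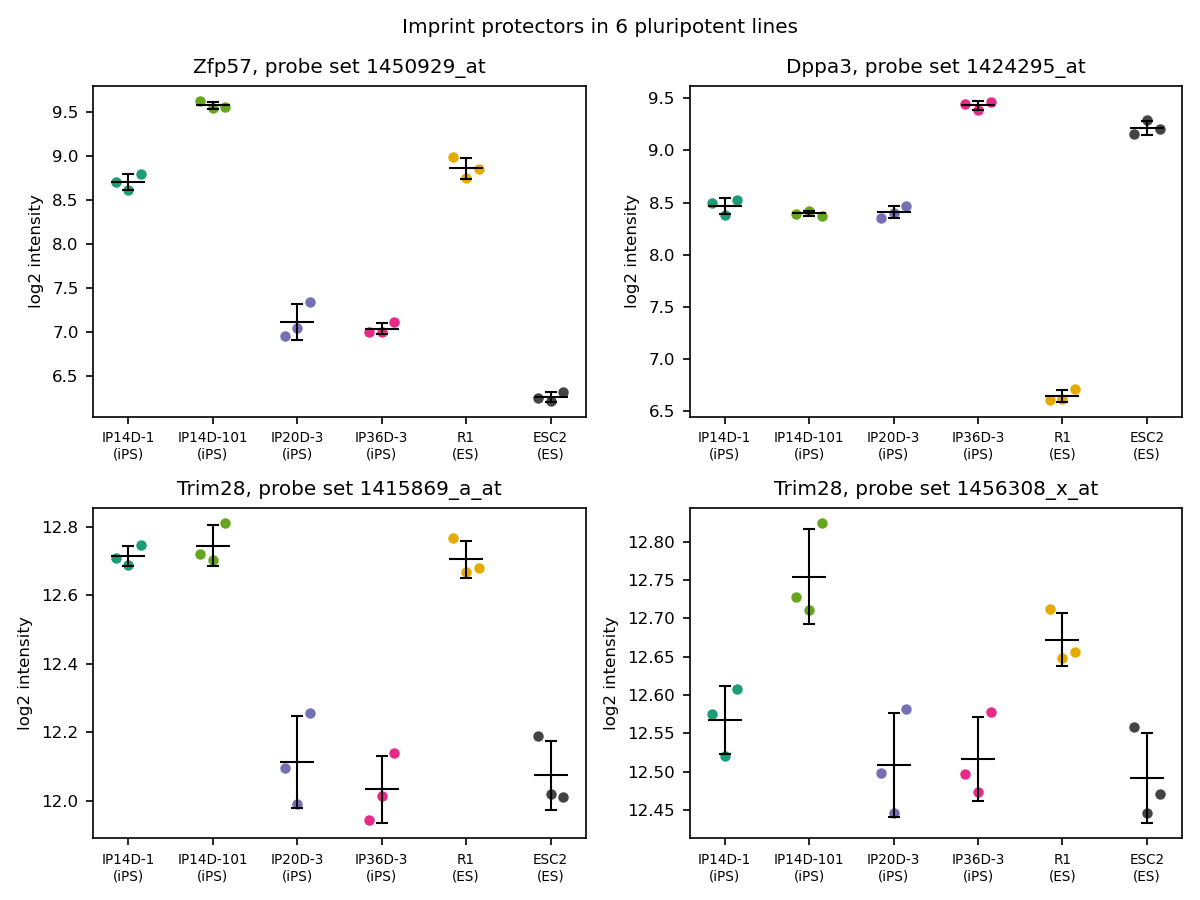
Log2 intensity (vertical axes, scaled separately) of the 4 probe sets in each line (horizontal axes), with 1 point per array and the mean ± SD over 3 arrays in black. Zfp57 and Trim28 probe set 1415869_a_at place IP14D-1, IP14D-101 and R1 above IP20D-3, IP36D-3 and ESC2, and Dppa3 is lowest in R1.

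Dppa3 (probe set 1424295_at; chromosome 6, 122626424 to 122630271) followed another order. Arrays of IP36D-3 gave 9.45, 9.38 and 9.46, and arrays of IP14D-1 gave 8.49, 8.38 and 8.53. Those of IP14D-101 gave 8.40, 8.42 and 8.37, and those of IP20D-3 gave 8.35, 8.40 and 8.47. R1 gave 6.61, 6.62 and 6.71, and ESC2 gave 9.16, 9.29 and 9.20. IP36D-3 was highest and ESC2 second, without overlap and with a difference of 0.21. IP14D-1, IP20D-3 and IP14D-101 overlapped one another at 8.47 ± 0.08, 8.41 ± 0.06 and 8.40 ± 0.02 (SD, n = 3 each), all below ESC2. R1 was lowest on every array.

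Dppa3 in R1 averaged 6.65 ± 0.06, against 9.22 ± 0.07 in ESC2 (SD, n = 3 each), a 5.95-fold lower level. The difference between the highest and lowest line, IP36D-3 and R1, was 6.89-fold. That range over lines exceeded that of 99.0% of genes. Dppa3 and Zfp57 did not order the lines alike: R1 was second in Zfp57 and last in Dppa3, and ESC2 was last in Zfp57 and second in Dppa3. Over the 6 line means, r was -0.61, a description of 6 points that share arrays and normalisation. The gene table lists a pseudogene, Dppa3-ps, on chromosome X, and whether the probe set separates its transcripts from those of Dppa3 was not tested.

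Trim28 (chromosome 7, 13024152 to 13031032) was among the most abundant transcripts in every line, between the 99.0th and 99.6th percentile of genes. Probe set 1415869_a_at gave 12.71, 12.69 and 12.75 in IP14D-1 and 12.72, 12.70 and 12.81 in IP14D-101. It gave 12.10, 11.99 and 12.26 in IP20D-3 and 11.94, 12.02 and 12.14 in IP36D-3. R1 gave 12.77, 12.67 and 12.68, and ESC2 gave 12.19, 12.02 and 12.01. IP14D-101, IP14D-1 and R1 overlapped one another, as did IP20D-3, ESC2 and IP36D-3, and the lines of the first set were above those of the second on every array. The means of IP14D-1, IP14D-101 and R1 were 0.64, 0.67 and 0.63 above that of ESC2.

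The other Trim28 probe set, 1456308_x_at, showed smaller differences, and its suffix marks probes that can match other sequences too. Its line means ran from 12.75 ± 0.06 in IP14D-101 and 12.67 ± 0.03 in R1 to 12.57 ± 0.04 in IP14D-1, 12.52 ± 0.05 in IP36D-3, 12.51 ± 0.07 in IP20D-3 and 12.49 ± 0.06 in ESC2 (SD, n = 3 each). IP14D-101 and R1 overlapped, and both were clear of the other 4 lines, which overlapped one another. The widest difference between lines was 1.2-fold by this probe set and 1.64-fold by 1415869_a_at. The probe sets therefore differed on IP14D-1, which exceeded ESC2 by 0.08 in one and 0.64 in the other. Over all 18193 genes, the median difference from ESC2 was itself 0.15 in each of IP14D-101 and R1. The median gene of an array averaged 5.99 in IP14D-101 and 6.0 in R1, against 5.81 in ESC2. With arrays shifted to 1 median over these genes (equal gene medians), the 1456308_x_at differences from ESC2 were 0.08 in IP14D-101, -0.01 in R1 and -0.01 in IP14D-1, so a direction held for IP14D-101 alone among these 3 lines. The 1415869_a_at differences became 0.49, 0.44 and 0.56 in the same lines.

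The iPS and ES lines overlapped in every member. Over line means, Zfp57 averaged 8.10 ± 1.24 (SD, n = 4) for iPS and 7.56 ± 1.84 (SD, n = 2) for ES. Dppa3 averaged 8.68 ± 0.51 in iPS and 7.93 ± 1.82 in ES lines. Trim28 averaged 12.40 ± 0.38 in iPS and 12.39 ± 0.45 in ES lines by 1415869_a_at. R1 and ESC2, the 2 ES lines, were 2.60 apart in Zfp57 and 2.57 apart in Dppa3, in opposite directions, more than the iPS lines spanned in either gene (7.03 to 9.57 in Zfp57 and 8.40 to 9.43 in Dppa3). Leaving out ESC2 or R1 turned the sign of the Zfp57 and Dppa3 differences: without ESC2 Zfp57 was at -0.76, and without R1 Dppa3 was at -0.54.

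In the deposited values, Zfp57 and Trim28 ordered the lines in much the same way. Over the 6 line means r was 0.95 between Zfp57 and Trim28 1415869_a_at and 0.91 between Zfp57 and 1456308_x_at. The 1456308_x_at line means spanned only 0.26. With equal gene medians, its differences from ESC2 in R1 and IP14D-1 did not keep their sign, as given above. The 18S control signal ran in the opposite sense to both genes, with r = -0.94 against Zfp57, -0.95 against 1415869_a_at and -0.93 against 1456308_x_at. With Dppa3 the same r was 0.60. Among the 3460 genes with a mean of at least 6 and line means spanning at least 1, 8.35% had an r of -0.9 or lower with the 18S signal. Trim28, with spans of 0.71 and 0.26 in its probe sets, is outside that set, so the share does not describe genes as flat as Trim28. The part of the 18S signal in the levels of Zfp57 and Trim28 was not tested. The r of Zfp57 with the beta-actin ratio was -0.83 and that of Dppa3 was 0.65, and the part of RNA quality was not tested either.

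**Figure D2:**
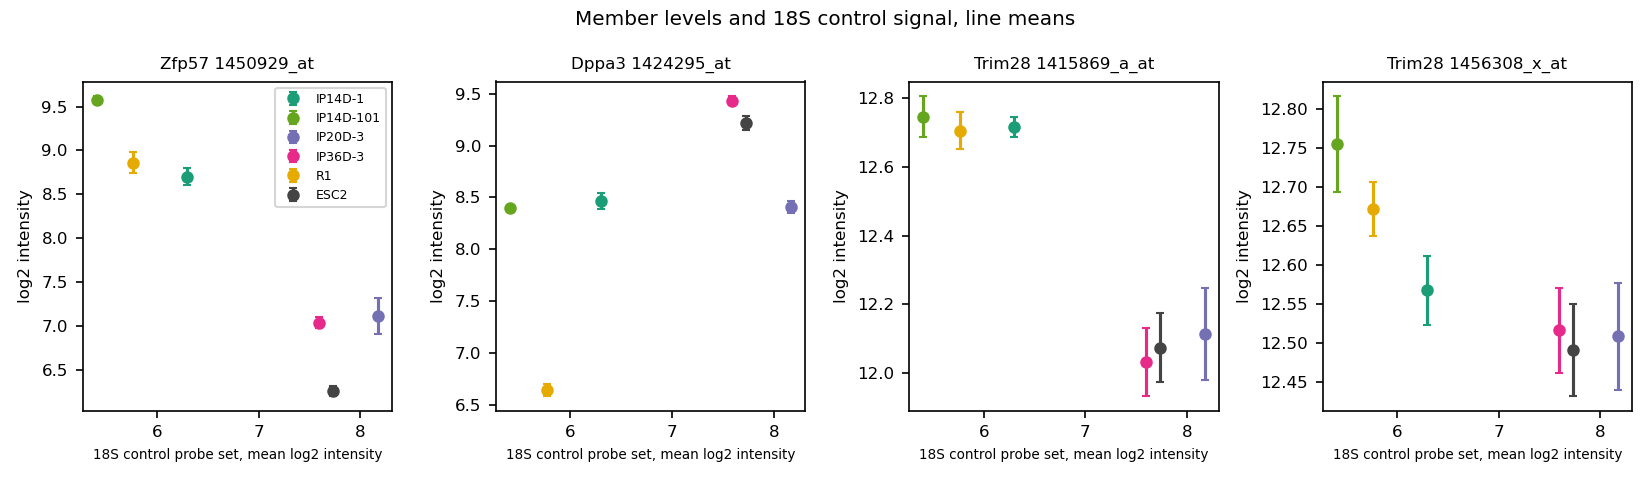
Line means (log2 intensity, bars are SD over 3 arrays) of the 4 member probe sets against the mean log2 intensity of the 18S control probe set, 1 point per line. Lines with a low 18S signal (IP14D-101, R1 and IP14D-1) are the 3 lines highest in Zfp57 and in Trim28 1415869_a_at, whereas Dppa3 has both its lowest line and 2 intermediate lines among them.

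The 5 genes most like Zfp57 over the 6 line means were taken among genes with a mean of at least 6 and line means spanning at least 1. They were the linker histone gene H1f10 (r = 0.995), the growth factor gene Vegfb (0.993), the mTOR pathway inhibitor Tsc2 (0.993), the transcription factor Usf2 (0.993) and Ilrun (0.992). H1f10 stood at 9.15 in IP14D-1, 9.61 in IP14D-101, 8.0 in IP20D-3, 8.06 in IP36D-3, 9.25 in R1 and 7.70 in ESC2. Of the 3459 genes eligible, 6.76% had an r of at least 0.9 with Zfp57, so a profile of this shape was shared by many genes. All 5 also had an r between -0.92 and -0.97 with the 18S signal.

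For Dppa3 the 5 genes were G2e3 (r = 0.982), the transcription factor Myb (0.980), Zfp322a (0.975), the chromodomain protein Cdyl (0.966) and Cnpy1 (0.962). Myb stood at 6.80 in IP14D-1, 7.05 in IP14D-101, 7.31 in IP20D-3, 8.43 in IP36D-3, 5.28 in R1 and 7.92 in ESC2. Only 0.896% of eligible genes had an r of at least 0.9 with Dppa3. Trim28 was left out of this search because its line means in the brighter probe set span under 1.

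**Figure D3:**
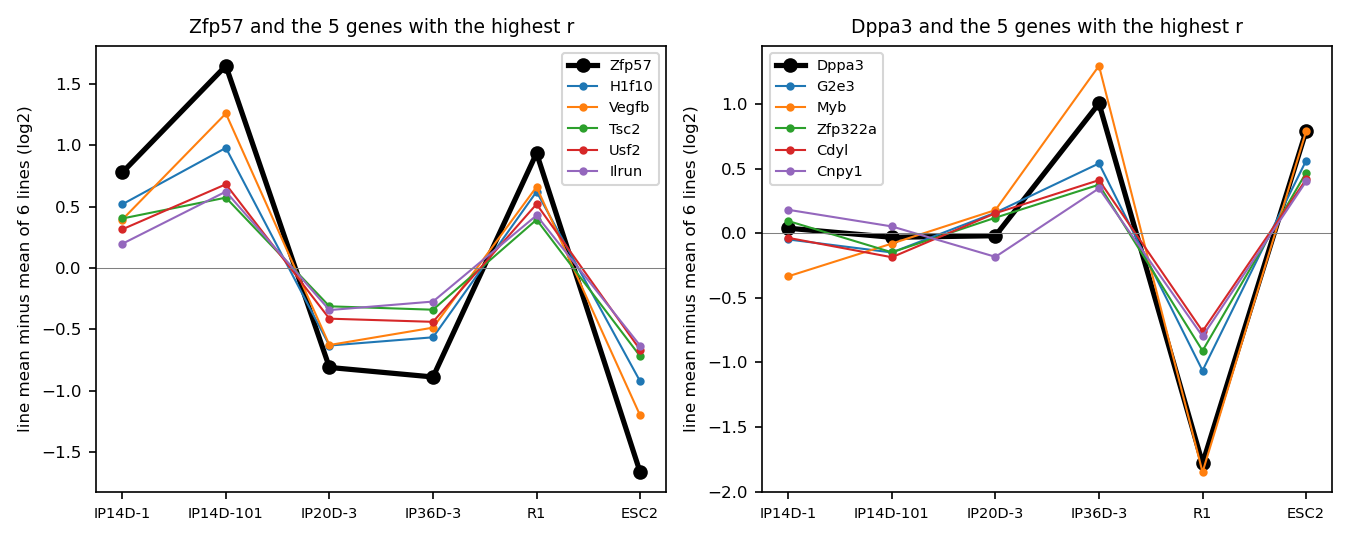
Line means of Zfp57 (left) and Dppa3 (right), thick black lines, with the 5 genes of highest Pearson r over the 6 lines, each as log2 difference from its own mean over the lines. Zfp57 and its 5 genes peak in IP14D-101 and are lowest in ESC2, and Dppa3 and its 5 genes are lowest in R1.

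The genes next to each member give the local background. For Zfp57, the 3 nearest measured genes on each side were Znrd1, Znrd1as and 2410137M14Rik upstream and Mog, Gabbr1 and Ubd downstream. The myelin gene Mog begins 11 bases beyond the annotated end of Zfp57 and stayed between 2.23 and 2.5 in all 6 lines, under the array median. The receptor gene Gabbr1 stood at 7.14 ± 0.12 in IP14D-1 and 7.54 ± 0.17 in IP14D-101, against 6.56 ± 0.06 in ESC2 (SD, n = 3 each). Over lines r with Zfp57 was 0.60 for Gabbr1 and 0.60 for Znrd1. A call here means that limma, adjusting over all 18193 genes, put the adjusted p below 0.05 and that the log2 difference reached 1 in size. Gabbr1, at 0.98 in IP14D-101, was short of that size. Of the 6 neighbours, Ubd, a ubiquitin-like gene, was called lower in R1 by -1.29 and higher in IP20D-3 by 1.92, contrasts in which 8.13% and 8.6% of all genes were called, so 1 of 6 is no result about the locus.

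Dppa3 lies in a cluster of pluripotency genes on chromosome 6, with Gdf3 16.3 kb to one side and Nanog 77.2 kb to the other. Over the 6 line means, r with Dppa3 was 0.47 for Gdf3 and -0.71 for Nanog. Nanog, a core pluripotency factor, stood at 11.73 ± 0.13 in R1, where Dppa3 was lowest, and 11.27 ± 0.07 in ESC2, a difference that was not called. The growth factor gene Gdf3 stayed between 9.91 and 10.35 in all lines. Apobec1, an RNA-editing deaminase gene 23.4 kb away, was called in IP20D-3 (7.46 ± 0.13 against 5.81 ± 0.17 in ESC2; SD, n = 3 each). Slc2a3, a glucose transporter gene, had r = -0.71 with Dppa3 over lines. Near Trim28, Chmp2a begins 974 bases past the annotated end and stood at 9.52 in IP14D-1, 9.61 in IP14D-101, 9.92 in IP20D-3, 9.53 in IP36D-3, 9.86 in R1 and 9.16 in ESC2. That order differs from the order of Trim28, with r = 0.32. Of the 6 genes around Trim28, 0 were called by limma in any line against ESC2, where 3.38% to 8.73% of all genes were called.

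Promoter windows from RefSeq (GRCm38.p6, plus strand) run from 250 bases before to 50 bases after an annotated start. They are shown for Zfp57 and Trim28, as no window for Dppa3 was available. Capitals mark matches to TGCCGC, the ZFP57 hexamer, and to GGGCGG, the GC box, searched on both strands.
Zfp57, chr17:37000913-37001212: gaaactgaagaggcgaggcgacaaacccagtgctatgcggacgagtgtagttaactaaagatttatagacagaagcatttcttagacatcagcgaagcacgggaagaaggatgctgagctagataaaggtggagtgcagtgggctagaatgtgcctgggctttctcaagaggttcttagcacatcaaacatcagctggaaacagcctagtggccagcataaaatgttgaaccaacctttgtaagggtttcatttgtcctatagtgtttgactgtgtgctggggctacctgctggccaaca
Trim28, chr7:13023902-13024201: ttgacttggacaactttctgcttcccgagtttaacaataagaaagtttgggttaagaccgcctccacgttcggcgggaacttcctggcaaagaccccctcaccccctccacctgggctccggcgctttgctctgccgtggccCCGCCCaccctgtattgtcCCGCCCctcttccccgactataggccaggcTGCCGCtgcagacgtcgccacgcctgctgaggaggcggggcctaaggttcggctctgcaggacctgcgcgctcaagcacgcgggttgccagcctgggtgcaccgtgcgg
The Zfp57 window has 47% G+C and 6 CpG dinucleotides, against 64% and 23 in the Trim28 window and medians of 52.7% and 7 over 32851 windows. The Trim28 window holds 2 GC boxes, at positions -108 and -89 from the start, and 1 TGCCGC at position -59. The Zfp57 window shown holds neither motif, and nor do the windows at its other starts (chr17:37002275-37002574 and chr17:37003416-37003715). Of all windows, 35.7% hold a GC box and 11.6% a TGCCGC. The octamer ATGCAAAT (in 1.74% of windows) and TTCNNNGAA, the STAT site (in 8.30%), were found in none of these windows. A match or its absence describes the letters of the window only.

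The partners of the 3 proteins were taken as a list of 38 genes, of which 36 were measured. The list was drawn up with earlier results on these arrays known. In IP14D-1, 0 of 36 partners were called against ESC2 by limma, where 3.44% of all genes were called (2.08% higher and 1.36% lower). At an unadjusted p under 0.05 there were 23 partners, beside 8506 of all 18193 genes. In IP14D-101, 5 partners rose and 4 fell, where 8.73% of all genes were called (4.67% higher and 4.06% lower). In IP20D-3, 2 rose and 3 fell, where 8.6% were called (5.22% higher and 3.38% lower). In IP36D-3, 0 partners were called by limma, where 3.38% of all genes were called (1.91% higher and 1.47% lower). The unadjusted limit was passed there by 27 partners and by 8333 of all 18193 genes. In R1, 4 rose and 6 fell, where 8.13% were called (4.38% higher and 3.75% lower). The median partner difference from ESC2 was 0.02 in IP14D-1, -0.03 in IP14D-101, -0.02 in IP20D-3, 0.04 in IP36D-3 and -0.36 in R1, beside 0.06, 0.15, 0.01, 0.05 and 0.15 over all genes. With equal gene medians the balance of all genes turned to lower calls in 4 contrasts. It became 274 higher and 342 lower in IP14D-1 (against 378 and 248), 535 and 1097 in IP14D-101 (against 849 and 739), 195 and 381 in IP36D-3 (against 347 and 268), and 462 and 1047 in R1 (against 797 and 682). These contrasts share the ESC2 arrays, so they are given side by side and not as separate evidence.

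Of 13 measured members of the TRIM28 complex, limma called 0 in IP14D-1, IP14D-101 and IP36D-3, with 6, 9 and 8 at an unadjusted p under 0.05. That unadjusted limit was passed by 8506, 11114 and 8333 of all 18193 genes in the same contrasts. In IP20D-3 1 fell, and in R1 1 fell, where 3.38% and 3.75% of all genes were called lower. A count of 1 in 13 is no result about the complex. With equal gene medians more of the 13 were called lower in R1, as given below, so the R1 count depends on the scaling. Setdb1, which trimethylates lysine 9 of histone H3, stood at 9.21 in IP14D-1, 9.38 in IP14D-101, 8.87 in IP20D-3, 9.46 in IP36D-3, 9.46 in R1 and 9.39 in ESC2. The gene that fell in IP20D-3 was Trim24, a close relative of Trim28 (by 1.07 ± 0.08, with the SE after ± here and for every later difference; limma adjusted p = 4.53e-09). Morc3, a chromatin ATPase, fell in R1 by 1.10 ± 0.11 (limma adjusted p = 1.53e-07). Cbx5, which encodes HP1 alpha, differed from ESC2 by 0.64 in IP14D-1, 0.51 in IP14D-101 and 0.62 in R1, short of the size for a call, and most of its other bright probe sets had the opposite sign there.

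Of 6 measured KRAB zinc finger genes other than Zfp57, 4 fell in IP14D-101 and 3 in R1, and 0 were called higher there. Over all genes, 4.06% were called lower in IP14D-101 and 3.75% in R1. Without IP14D-101 replicate 3, 2 of the 4 kept the call in that line (Zfp445, -1.09, and Zfp708, -1.09), whereas Zfp932 (-0.98) and Zfp809 (-0.77) lost it. On that array Zfp932 stood at 7.42, against 8.30 and 8.39 on the other IP14D-101 arrays. In IP36D-3, a line of the lower Zfp57 set, 0 of the 6 were called by limma, with 5 below ESC2 and a median difference of -0.55. All 6 had an unadjusted p under 0.05, as had 8333 of all 18193 genes in that contrast. Zfp568 differed from ESC2 by -0.30 in IP14D-101 and 0.05 in R1, without a call. Zfp445, which acts with ZFP57 at imprinted loci, stood at 9.09 ± 0.53 in IP14D-101 and 9.35 ± 0.15 in R1, against 10.49 ± 0.08 in ESC2 (SD, n = 3 each). It fell by 1.40 ± 0.17 in IP14D-101 and by 1.14 ± 0.17 in R1 (limma), with both of its other probe sets lower too. Zfp932 fell by 1.29 and 1.49 in IP14D-101 and R1. Zfp708 fell by 1.29 and 1.86 there. It was dim, at 5.29 in ESC2 and 3.43 in R1, where the median gene stood at 5.81 and 6.0. Zfp809, which silences retroviruses, fell by 1.04 in IP14D-101. In IP14D-1, where Zfp57 was also high, 0 of the 6 were called by limma, and Zfp445 differed from ESC2 by -0.32. IP14D-1 shares the strain label of ESC2, whereas IP14D-101 and R1 are the only lines that do not. In IP14D-101 and R1, line and strain therefore cannot be told apart. The part of strain in their KRAB zinc finger calls was not tested. Zfp819 rose by 1.21 ± 0.11 in IP20D-3, the 1 call among the 6 there, where 5.22% of all genes were called higher.

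Of 3 genes for dimethylation of lysine 9 on histone H3, the mark that DPPA3 binds, 2 rose in IP14D-101 and the same 2 in R1. Over all genes, 4.67% were called higher in IP14D-101 and 4.38% in R1. Ehmt2, the methyltransferase G9a, rose by 1.57 ± 0.10 in IP14D-101 and by 1.34 ± 0.10 in R1 (limma adjusted p = 9.42e-10 and 7.54e-09), with its other probe set in the same direction. Wiz, a zinc finger partner of the enzyme, rose by 1.42 and 1.04, although a dim second probe set had the opposite sign. Ehmt1, the other subunit, differed from ESC2 by 0.07 in IP14D-101 and -0.15 in R1. In IP14D-1, Ehmt2 and Wiz were 0.92 and 0.80 above ESC2, short of the size for a call. Dppa3 itself was lowest in R1 and intermediate in IP14D-101. As IP14D-101 and R1 differ from ESC2 in strain label, the part of strain in the Ehmt2 and Wiz calls was not tested either.

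Among genes of DNA methylation, Dnmt1, the maintenance methyltransferase, rose in IP14D-101 by 1.04 ± 0.07 (limma adjusted p = 1.56e-09); the difference was 0.99, short of a call, without IP14D-101 replicate 3. It stood at 9.77 in IP14D-1, 9.52 in IP20D-3, 9.77 in IP36D-3 and 10.05 in R1, against 9.17 in ESC2, without a call. Its cofactor Uhrf1, which DPPA3 inhibits, was 0.40 to 0.77 above ESC2 in the 5 lines, also without a call. The de novo enzymes Dnmt3a and Dnmt3b fell in IP20D-3 by 1.67 ± 0.12 and 1.63 ± 0.07, and Dnmt3a fell in R1 by 1.29 ± 0.12. The dioxygenase gene Tet2 rose in IP20D-3 by 1.61 ± 0.13, and Tet1 fell in R1 by 1.37 ± 0.15. Of the other guards, Zfp42 (Rex1) rose by 1.90 ± 0.07 in IP14D-101 and 2.13 ± 0.07 in R1, and Mbd3, a subunit of the NuRD complex, by 1.13 and 1.06. For Zfp42 and Mbd3 too, the part of strain in the calls of IP14D-101 and R1 was not tested.

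Equal gene medians moved the balance of partner calls in these 2 lines, as they did that of all genes. In IP14D-101, 3 rose and 5 fell with that scaling, where Dnmt1 (0.86) and Mbd3 (0.95) lost the call and Dnmt3b (-1.06) gained one. In R1, 2 rose and 11 fell, where Wiz (0.85) and Mbd3 (0.87) lost it. The genes gained in R1 were Trim33 (-1.17), Atf7ip (-1.15), Hdac2 (-1.06), Smarcad1 (-1.03) and Cbx1 (-1.01), all of the TRIM28 complex list of 13 measured genes. The counts of all genes called higher and lower with that scaling are those given with the partners. The directions of Ehmt2, Zfp42 and Zfp445 were kept with their calls.

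**Figure D4:**
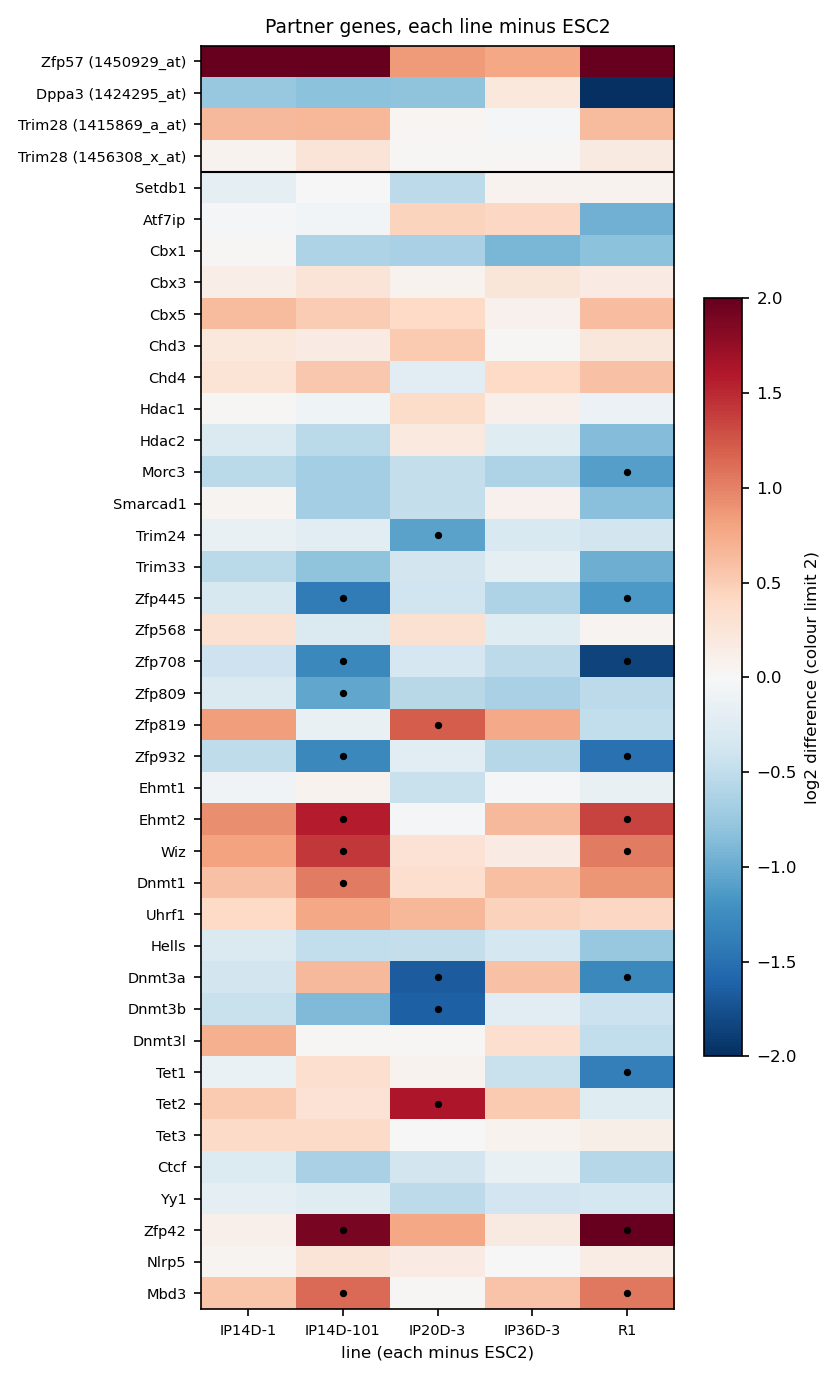
Log2 difference of each line from ESC2 (columns) for the 4 member probe sets, above the black line, and the 36 measured partner genes, below it. Black dots mark partners called by limma, of which IP14D-1 and IP36D-3 have 0, and members carry no mark because they were not tested.

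Imprinted genes, whose methylation these proteins guard, were set beside the protectors. Of 28 listed, 25 were measured. In IP14D-1, 2 rose and 1 fell against ESC2. In IP14D-101, 2 rose and 9 fell. In IP20D-3, 1 rose and 9 fell. In IP36D-3, 0 rose and 5 fell. In R1, 5 rose and 3 fell. The shares of all genes called in these contrasts are those given with the partners, and median imprinted differences were 0.26, -0.17, -0.62, -0.19 and 0.13. Meg3, the maternally expressed noncoding RNA of the Dlk1-Dio3 region, stood at 5.23 in IP20D-3 and 5.90 in IP36D-3, where Zfp57 was in its lower set, and at 11.34 in ESC2, where Zfp57 was lowest of all. Over the 6 line means r between Zfp57 and Meg3 was 0.33. Rian and Mirg, of the same region as Meg3, were also called lower (-4.04 and -2.38 in IP20D-3, -3.88 and -2.16 in IP36D-3). The falls counted in these lines therefore hold Meg3, Rian and Mirg together and are not all separate loci.

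Peg10, a paternally expressed retrotransposon-derived gene, had a profile nearer to that of Zfp57 than Meg3 had. It rose in R1 (8.08 ± 0.23), IP14D-101 (6.53 ± 0.25) and IP14D-1 (6.02 ± 0.10), against 3.85 ± 0.15 in ESC2 (SD, n = 3 each), where it lay under the array median. Its r over lines was 0.86 with Zfp57, -0.83 with Dppa3 and -0.91 with the 18S signal. Among the 3459 genes searched above for likeness to Zfp57, 6.76% had an r of at least 0.9 with it. The zinc finger gene Peg3, paternally expressed as well, fell by 2.81 ± 0.09 in IP14D-101, by 1.62 ± 0.09 in IP20D-3 and by 2.12 ± 0.09 in R1 (limma). Grb10 fell by 2.27 ± 0.08 in IP14D-101 and rose by 1.45 ± 0.08 in IP20D-3 and by 1.03 ± 0.08 in R1, where equal gene medians (0.84) ended the call. Nnat fell in IP20D-3 by 2.14 ± 0.12.

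**Figure D5:**
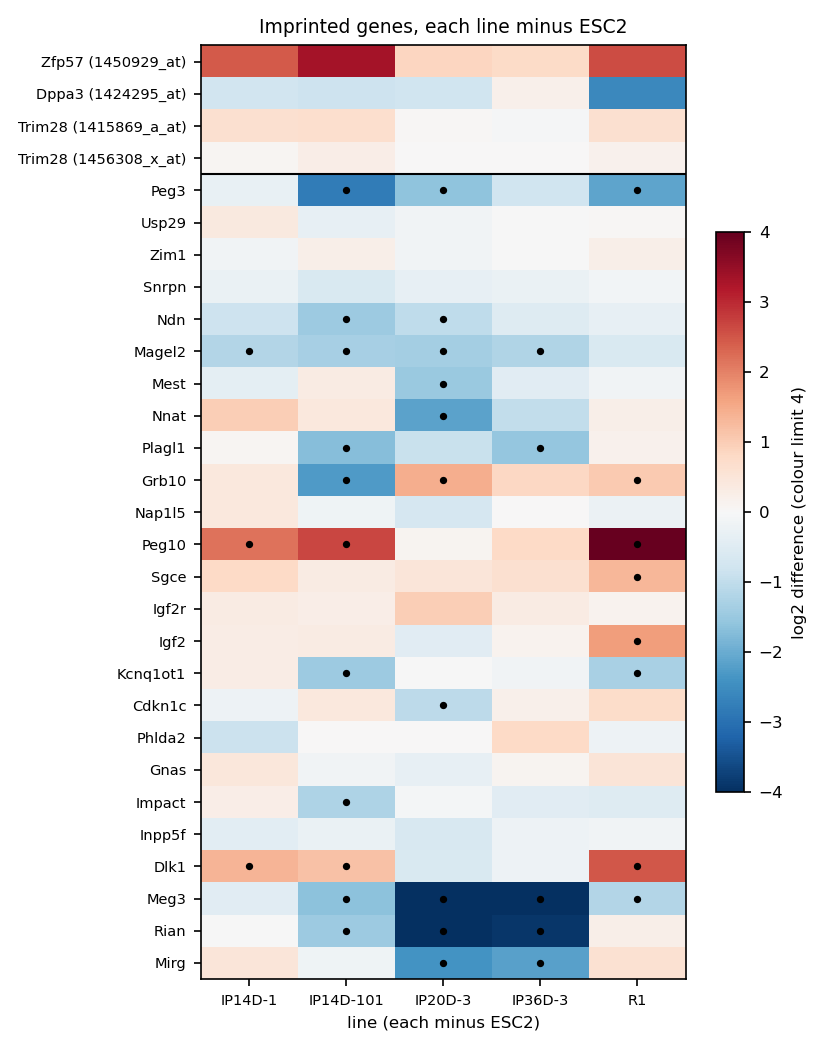
Log2 difference of each line from ESC2 (columns) for the 4 member probe sets, above the black line, and 25 measured imprinted genes, below it, with black dots for called genes. Colours stop at 4, and Meg3 in IP20D-3 and IP36D-3, Rian in IP20D-3 and Peg10 in R1 lie beyond that.

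Markers of cell state were set beside the member levels. The mean of 8 naive-state genes was 9.95 in IP14D-1, 9.85 in IP14D-101, 10.53 in IP20D-3, 9.12 in IP36D-3, 9.52 in R1 and 8.37 in ESC2. Over the 6 lines, r of this mean was -0.36 with Dppa3 and 0.48 with Zfp57. The mean of 8 primitive endoderm genes was 7.06 in IP14D-101, the line highest in Zfp57, and 4.43 to 5.02 in the other lines. In IP14D-101, 2 of these 8 genes lay under the median gene, against 6 or 7 in the other lines. Of the 8, 7 rose in IP14D-101 against ESC2, where 4.67% of all genes were called higher, and Gata6 and Cubn were among the 7. Their part in the IP14D-101 member levels was not tested. In R1 and IP14D-1, where Zfp57 was also high, the same mean was 5.02 and 4.50, against 4.50 in ESC2. Germ cell markers averaged 6.80 to 7.41 over the lines, lowest in IP36D-3, the line highest in Dppa3.

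When the 4 iPS line means were set against the 2 ES line means, limma called 0 of the 36 partners and 0 of the 25 imprinted genes. At an unadjusted p under 0.05 there were 1 and 2, and 0% of the 18193 genes were called, with 700 under that unadjusted limit.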

How the data were processed

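The deposited table holds probe set intensity values on a linear scale, made by the authors with RMA (named in the design text and in the submitters' processing notes). For RMA's version, not given in the sources used here, no value can be stated. The deposited intensities were taken to log2 for all steps. Of 45101 probe sets, 64 were controls. The platform annotation gave 1 symbol to 34945 and several to 932, and 34741 of the former matched a RefSeq gene table (GRCm38.p6) by gene identifier with 0 symbols changed. Each of 18193 genes was represented by its brightest probe set, and each member by all of its probe sets.

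Groups are the cell lines in the sample titles. limma 3.58.1 (R 4.3.3) fitted a mean per line over 18 arrays (12 residual degrees of freedom), or the 6 line means for iPS against ES lines, with Benjamini-Hochberg adjustment over all genes. Other steps used numpy 2.4.6, pandas 2.3.3 and, for plots, matplotlib 3.10.9 (Python 3.11.15). The steps were tested on simulated data. Alternatives were equal array medians over the 18193 genes (equal gene medians), quantile normalisation, other probe set summaries, a level filter, trend and robust estimation, only the arrays of the lines compared, fixed line means, a replicate block and leaving out arrays or lines. The genes named are called genes of each list, up to 4 per direction and contrast by size, though for the imprinted list not all of these are named. Also named are any list gene whose role orders the text, 3 measured neighbours on each side of a member and the 5 genes most like Zfp57 and Dppa3. Members and lists were chosen with earlier results of these data known. The number of arrays limits precision.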

Additional observations from a re-analysis of the deposited data

Results flagged for a closer look

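Among the 4 iPS lines, Dppa3 was highest in IP36D-3. Its line mean was 9.43 there, against 8.47 in the next iPS line, a gap of 0.932 of the whole range of the 4 iPS means. This describes a gene chosen with its levels known and is not a test. The 3 IP36D-3 arrays lay between 9.38 and 9.46. The line with the nearest level was the ES line ESC2 at 9.22.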

How the results depend on the processing

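Of 123 alternatives to the 18 counts, other than leaving out an array or a line, 116 stayed within 1.5 times the reported count. Averaging all probe sets of a gene gave 414 genes called in IP14D-1 against 626, 7 imprinted genes in IP14D-101 against 11, and 3 in R1 against 8. Keeping genes with a mean of at least 6 left 1 imprinted gene called in IP14D-1 against 3. Equal gene medians called 1 partner in IP36D-3 against 0, which was Cbx1 (-1.03). Fixed line means over 18 arrays called 303 genes and 4 imprinted genes between iPS and ES lines against 0 and 0; that fit takes its spread from arrays of a line in place of lines. The cause of the other changes was not tested. Leaving out 1 array gave 579 to 687 genes in IP14D-1, 1342 to 1747 in IP14D-101, 1536 to 1627 in IP20D-3, 594 to 689 in IP36D-3 and 1423 to 1609 in R1, with 6 partners called in IP14D-101 without its replicate 3 against 9, and leaving out a line gave 0 to 1 between iPS and ES lines. With the replicate number as a block, IP14D-1 kept a count of 626 genes, IP14D-101 of 1588 and R1 of 1479, and the block moved no count in any contrast. Every line has the same replicate numbers, so a block cannot change a difference between lines. Same-numbered arrays of the lines and ESC2 did not deviate together in every pair, and the numbers were not used to pair the samples. Neither result can show that the samples are unpaired. For the members, 18 of 192 alternative differences moved by more than 1 SD, and 0 of those reported at 1 or more turned their sign.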
